A study of Mus musculus with 4 samples.

Results

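The chains studied here are 10 subunits of the receptors through which microglia, the macrophages that live in the brain, sense interleukins and interferons: Il6ra, Il6st, Il10ra, Il10rb, Il4ra, Il13ra1, Ifngr1, Ifngr2, Ifnar1 and Ifnar2. They were taken by gene symbol from the deposited count tables, and all 10 were present among the 49993 genes counted and passed the filter on low counts. The 4 libraries were bulk RNA-seq of CD11b+ microglia, isolated with magnetic beads from the brain at an age of 10 months. Every group carried APP/PS1, transgenes that drive amyloid deposition and model Alzheimer's disease. The AD group (n = 2 libraries) had the genotype APP/PS1+ asrij+/+, and the AD/KO group (n = 2 libraries) had APP/PS1+ asrij-/-, a constitutive deletion of asrij (the mouse gene Ociad1) that is not limited to microglia. Mice without amyloid were not analysed here, and the labels do not say whether a library came from 1 mouse or from several, so p-values measure the spread between these libraries.

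Each of these receptors joins chains that lack kinase activity of their own. Binding of the cytokine brings the chains together, so that the JAK kinases attached to their inner ends phosphorylate the receptor and the STAT transcription factors that dock on it. One chain of a pair usually binds the ligand with specificity (Il6ra, Il10ra, Il4ra, Ifngr1, Ifnar2) and the other completes the signalling complex (Il6st, Il10rb, Il13ra1, Ifngr2, Ifnar1), and several chains serve more than 1 cytokine. In brain, interferon receptors drive antiviral and antigen-presentation genes in microglia, whereas IL-10 and IL-4 are known for restraining inflammatory gene expression.

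No receptor chain set the libraries labelled AD/KO apart from those labelled AD beyond the spread between replicates. All 10 had a lower mean in AD/KO, at 59.7% to 82.0% of the AD mean, but this rested mainly on 1 library. AD/KO replicate 2 was the lowest of the 4 libraries for 10 of 10 chains, whereas AD/KO replicate 1 lay between the AD libraries for 9 of 10 and above both for Ifngr1. AD replicate 2 was below AD replicate 1 for 10 of 10 (48.7% of all genes). Over all genes tested, AD/KO replicate 2 was the lowest library for 42.4%, AD/KO replicate 1 lay between the AD libraries for 43.6%, and the mean was lower in AD/KO (log2 fold change below 0) for 52.8%. The 12 microglia markers examined beside them, among them P2ry12, Tmem119 and Cx3cr1, were also lowest in AD/KO replicate 2, in 12 of 12.

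Several facts of the libraries touch these values. The libraries held 13102622 to 19810076 counts, and the chains had 433 to 10891 reads per library, so the counting error of the smallest count was 4.81%. Replicates of a group differed far beyond counting error, with a chi-square per degree of freedom over genes of 81.2 in AD and 183 in AD/KO. The deleted gene Ociad1 was at 50.2 and 63.4 CPM (reads per 1000000 reads of the library, with TMM-scaled library sizes) in the AD libraries and at 38.9 and 32.1 CPM in the AD/KO libraries, and was thus lower but not lost. AD and AD/KO therefore stand for the libraries as labelled, and each direction is a difference between labels. The summed level of the 12 microglia markers was 19403 and 13240 CPM in AD and 19793 and 5723 CPM in AD/KO. The 11 neuron markers summed to 220.3 and 798 CPM in AD and to 618 and 1886 CPM in AD/KO, and the 8 astrocyte markers to 1866 and 4384 CPM and to 4555 and 11657 CPM. No gene of these 3 lists was at 0 in any library. The 8 oligodendrocyte markers summed to 1643 and 2635 CPM in AD and to 3921 and 8559 CPM in AD/KO. The 10 neutrophil markers summed to 5107 CPM in AD replicate 2 and to 406 to 615 CPM in the other libraries. Xist, an RNA of female cells, had 6 and 1391 reads in AD and 15 and 3 reads in AD/KO. By this RNA, AD replicate 2 alone held female cells in quantity, so sex was not balanced between the groups. The part of sex in the values of the chains was not tested. In bulk RNA, fewer microglia and less receptor RNA per microglial cell cannot be told apart. Values with libraries scaled to the microglia markers, and with the neuron and astrocyte markers as a covariate, are given with the comparison.

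Per length, Il10ra and Ifngr1 were the most abundant chains. The level per kilobase of exon in AD was 109 ± 43.5 CPM (SD, n = 2) for Il10ra and 97.0 ± 23.0 CPM (SD, n = 2) for Ifngr1, and the 2 genes did not differ beyond this spread. Il6st, the shared gp130 subunit, followed at 47.4 ± 13.3 CPM per kilobase, and its 2 AD values (56.8 and 38.0) lay below both values of Ifngr1 (113 and 80.7). Then came Ifngr2 at 34.2 ± 8.17, Ifnar2 at 33.4 ± 6.45, Il4ra at 30.3 ± 8.43, Il6ra at 28.7 ± 11.8, Il10rb at 21.9 ± 4.18, Il13ra1 at 19.9 ± 5.39 and Ifnar1 at 18.2 ± 3.66 CPM per kilobase (SD, n = 2 each). From Il6st downwards, no neighbours in this order differed beyond their spread. Il10ra, Ifngr1 and Il6st held the first 3 places in each of the 4 libraries, with Ifngr1 ahead of Il10ra only in AD replicate 2. The order rests on the exon lengths used: with the longest transcript of each gene as the length, the AD level was 131 CPM per kilobase for Ifngr1 and 109 for Il10ra.

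**Figure D1:**
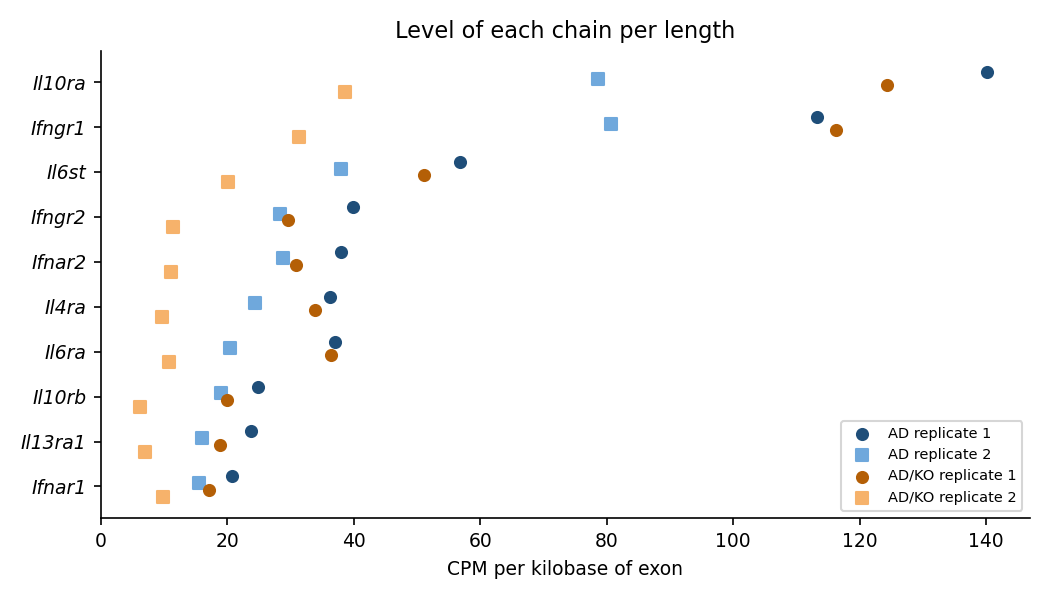
Level of each receptor chain in CPM per kilobase of exon (horizontal axis), with 1 point per library and the genes ordered by their mean in AD. Il10ra, Ifngr1 and Il6st lead in every library, and AD/KO replicate 2 (light orange squares) is the lowest point for every gene.

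The IL-6 receptor pairs Il6ra, the chain that binds IL-6 and can also be shed as a soluble receptor, with Il6st, which is used by the whole IL-6 family. Il6ra (protein-coding, gene ID 16194, chromosome 3, bases 89869324 to 89913196) was at 320.4 and 176 CPM in the AD libraries and at 315 and 92.7 CPM in the AD/KO libraries. AD/KO replicate 1 was thus level with AD replicate 1, and the groups overlapped. Its log2 fold change (AD/KO minus AD) of −0.29 (SE 0.69) was the smallest of the 10 chains, and its 95% interval ran from −2.07 to 1.50. Il6st (protein-coding, gene ID 16195, chromosome 13, bases 112464070 to 112506860) was at 631 and 422 CPM in AD and at 568 and 224 CPM in AD/KO. The groups overlapped again, with a log2 fold change of −0.41 (SE 0.59). Within a library, the ratio of Il6ra to Il6st reads does not depend on the scaling between libraries. It was 0.508 and 0.417 in AD and 0.554 and 0.414 in AD/KO, so that replicate 1 was higher than replicate 2 in both groups and the groups were not separated. Exons of Il6ra overlap the antisense gene Gm42809 over 2.80% of their length.

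The IL-10 receptor pairs Il10ra, which binds IL-10, with Il10rb, an accessory chain that also serves IL-22 and the lambda interferons. Il10ra (protein-coding, gene ID 16154, chromosome 9, bases 45253837 to 45269149) was at 490.4 and 275 CPM in AD and at 435 and 135 CPM in AD/KO, with a fold change of −0.43 (SE 0.68) on the log2 scale. Il10rb (protein-coding, gene ID 16155, chromosome 16, bases 91406157 to 91425834) was at 94.8 and 72.3 CPM in AD and at 76.2 and 23.5 CPM in AD/KO. Its 3 higher libraries lay close together and AD/KO replicate 2 stood at 32.5% of the lowest of them, the deepest such gap of the 10 chains. The log2 fold change of Il10rb was −0.74 (SE 0.60), with a 95% interval from −2.30 to 0.81. Reads of Il10ra outnumbered those of Il10rb by 5.17 and 3.81 times in AD and by 5.70 and 5.75 times in AD/KO. The AD/KO ratios exceeded the AD ratios, but that of AD replicate 1 was nearer to them than to AD replicate 2. The difference in log2 ratio was 0.37 (0.15 without AD replicate 2 and 0.59 without AD replicate 1), with a two-sided exact permutation p of 0.333, the smallest that 2 libraries against 2 allow (0.833 after Benjamini-Hochberg adjustment over 5 chain pairs).

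Il4ra binds IL-4 and, joined by Il13ra1, forms the receptor that both IL-4 and IL-13 use on myeloid cells. Il4ra (protein-coding, gene ID 16190, chromosome 7, bases 125552271 to 125579474) was at 218 and 146 CPM in AD and at 203 and 57.9 CPM in AD/KO, with a fold change of −0.48 (SE 0.66) on the log2 scale. Il13ra1 (protein-coding, gene ID 16164, chromosome X, bases 36112108 to 36171262) was at 87.9 and 59.6 CPM in AD and at 70.2 and 25.9 CPM in AD/KO, with a fold change of −0.62 (SE 0.55) on the log2 scale. In both genes AD/KO replicate 1 lay between the AD libraries and AD/KO replicate 2 below them. The ratio of Il4ra to Il13ra1 reads had the smallest range of the 5 pairs on the log2 scale, at 2.48 and 2.45 in AD and 2.90 and 2.24 in AD/KO (difference in log2 ratio 0.05, exact permutation p = 1, two-sided). Il13ra1 is X-linked, and Xist, the RNA of the inactive X chromosome, had 1391 reads in AD replicate 2 and 3 to 15 reads in the other libraries. The part of this difference in Il13ra1 was not tested. Exons of Il4ra overlap the antisense gene Gm44876 over 9.51% of their length.

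Ifngr1 binds interferon gamma, the main activator of antigen presentation in macrophages, and Ifngr2 is needed for its signal. Ifngr1 (protein-coding, gene ID 15979, chromosome 10, bases 19591949 to 19610229) was at 322 and 229.8 CPM in AD and at 331 and 89.2 CPM in AD/KO. It was the only chain whose highest library was AD/KO replicate 1 (1 of 10, against 10.9% of all genes), while its lowest was the other AD/KO library, and the log2 fold change was −0.39 (SE 0.68). Ifngr2 (protein-coding, gene ID 15980, chromosome 16, bases 91547059 to 91564007) was at 150.5 and 107 CPM in AD and at 111 and 42.8 CPM in AD/KO, with a fold change of −0.74 (SE 0.54) on the log2 scale. Its 95% interval ran from −2.13 to 0.65. The ratio of Ifngr1 to Ifngr2 reads was 2.14 and 2.15 for the AD libraries, and 2.97 and 2.08 for the AD/KO libraries. Here AD/KO replicate 1 was the highest and the other AD/KO library the lowest. The groups overlapped, and the difference in log2 ratio was 0.21 (exact permutation p = 1, two-sided).

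Ifnar1 and Ifnar2 form the receptor of the type I interferons, with Ifnar2 as the chain of higher affinity. Ifnar1 (protein-coding, gene ID 15975, chromosome 16, bases 91485032 to 91510523) was at 123 and 92.5 CPM in AD and at 101 and 58.5 CPM in AD/KO, with a fold change of −0.43 (SE 0.39) on the log2 scale. Ifnar2 (protein-coding, gene ID 15976, chromosome 16, bases 91372783 to 91405589) was at 126 and 96.1 CPM in AD and at 102 and 36.7 CPM in AD/KO, with a fold change of −0.68 (SE 0.55) on the log2 scale. In 3 libraries both chains had nearly equal reads, with a ratio of Ifnar1 to Ifnar2 of 0.975 and 0.963 in AD and 0.987 in AD/KO replicate 1. In AD/KO replicate 2 the ratio was 1.60, from 1078 reads of Ifnar1 and 676 of Ifnar2. The AD/KO ratios thus exceeded the AD ratios, but AD/KO replicate 1 by only a small step, and without AD/KO replicate 2 the difference in log2 ratio moved from 0.37 to 0.03. The exact permutation p was 0.333 (two-sided), or 0.833 adjusted over the 5 pairs.

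**Figure D2:**
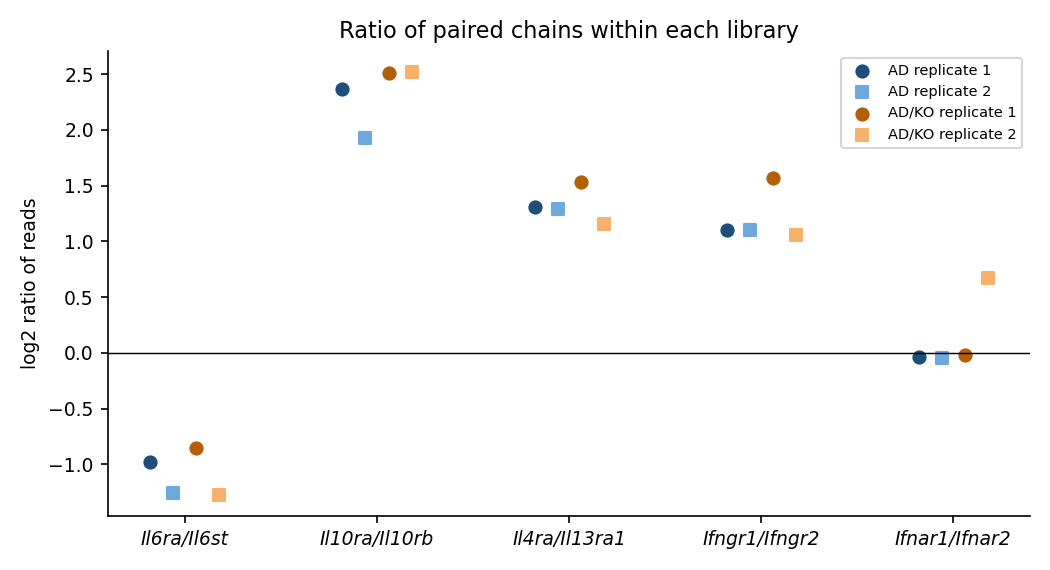
Log2 ratio of the reads of paired receptor chains within each library (vertical axis) for 5 pairs of chains, with 1 point per library. Ifnar1/Ifnar2 sits near 0 in 3 libraries and at 0.67 in AD/KO replicate 2, and Ifngr1/Ifngr2 stands at 1.57 in AD/KO replicate 1 against 1.06 to 1.10 elsewhere.

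Of the chains, 4 lie next to each other. Ifnar2, Il10rb, Ifnar1 and Ifngr2 follow in this order on the same strand of chromosome 16 within 191225 bases (RefSeq, GRCm38.p6). Ifnar2 and Il10rb are only 567 bases apart, and GENCODE M21 annotates a gene across both, Gm21970, which shares 315 exon bases with Ifnar2 and 569 with Il10rb and was not analysed here. Despite this proximity the 4 genes did not keep the same ratios across libraries. AD/KO replicate 2 stood at 63.2% of the lowest other library for Ifnar1, but at 38.2% for Ifnar2, 32.5% for Il10rb and 40.0% for Ifngr2. The long non-coding gene Gm36587, which overlaps the start of Ifnar2, had 851 and 636 reads in AD and 708 and 252 reads in AD/KO, and the use of strand in counting is not stated.

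The promoters of both interferon receptors are shown because their 2 chains can be compared directly, and because 3 of these genes lie in the group on chromosome 16. Windows are the 250 bases before the RefSeq transcript start (GRCm38.p6), and for Ifnar1 only the 67 bases before the first annotated base of the gene are printed. The RefSeq table gave such a window for 8 of the 10 chains (all but Il10ra and Il10rb). Capitals mark letters that match any of 6 motifs searched on both strands: TTCNNNGAA (GAS, bound by STAT dimers), GAAANNGAAA (core of the interferon-stimulated response element, ISRE), GGAAGT (ETS family core), GGGCGG (GC box), CCAAT and TATAAA.
Ifngr1 chr10:19591699-19591948, plus strand: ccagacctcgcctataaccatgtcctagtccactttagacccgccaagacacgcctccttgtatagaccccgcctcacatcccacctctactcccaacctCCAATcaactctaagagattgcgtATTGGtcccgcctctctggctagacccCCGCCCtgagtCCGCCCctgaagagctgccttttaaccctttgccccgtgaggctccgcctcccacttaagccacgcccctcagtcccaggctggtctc
Ifngr2 chr16:91546809-91547058, plus strand: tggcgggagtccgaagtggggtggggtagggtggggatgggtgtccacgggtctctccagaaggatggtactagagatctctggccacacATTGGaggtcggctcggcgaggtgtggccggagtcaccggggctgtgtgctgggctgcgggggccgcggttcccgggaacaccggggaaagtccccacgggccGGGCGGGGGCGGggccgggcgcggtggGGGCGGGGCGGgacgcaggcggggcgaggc
Ifnar1 chr16:91484965-91485031, plus strand: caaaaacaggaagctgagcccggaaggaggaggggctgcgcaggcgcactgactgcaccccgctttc
Ifnar2 chr16:91372533-91372782, plus strand: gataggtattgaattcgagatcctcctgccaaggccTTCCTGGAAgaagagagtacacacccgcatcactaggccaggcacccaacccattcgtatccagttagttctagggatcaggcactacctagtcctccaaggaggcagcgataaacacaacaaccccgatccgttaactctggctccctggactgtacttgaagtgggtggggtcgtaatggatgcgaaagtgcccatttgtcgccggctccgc

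The promoters of the paired chains differed in their letters. Ifngr2 held 4 GC boxes, some of them overlapping in the capitals, and 1 CCAAT box, and Ifngr1 held 2 GC boxes and 2 CCAAT boxes, while the whole window of Ifnar1 held 2 GC boxes and 1 ETS core, none of them in the bases printed. Ifnar2 held none of these but 1 GAS match, 214 bases before the start. The matches of Ifnar1 lie past the first annotated base of the gene and are included in the counts that follow. Among the 8 chains, 6 had a GC box (32.7% of 32851 promoters of the same length), 4 a CCAAT box (33.8%), 3 an ETS core (19.7%), 1 a GAS match (7.02%), 0 an ISRE core (2.98%) and 0 a TATA box (12.4%). The letters G and C made up 54% (Ifnar2) to 74% (Ifngr2) of these 8 windows, against a median of 52.4% over all promoters. The part of this composition in the motif counts was not tested. A match is a description of these letters and no evidence of binding.

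The fit across all genes asked which chains respond to the label. With edgeR's quasi-likelihood test and Benjamini-Hochberg adjustment over 21439 genes, 0 of 10 chains passed an adjusted p of 0.05, against 0.00% of all genes. Adjusted p-values ran from 0.682 (Ifngr2) to 0.873 (Il6ra). At an unadjusted p under 0.05, 0 of 10 chains passed, against 5.00% of all genes (1072), and DESeq2 called 0 of 10 chains at an adjusted p of 0.05, against 0.440% of its genes (88). The groups overlapped in each of the 10 chains. None, 0 of 10, had its AD/KO values wholly below the AD values, against 21.7% of all genes, or wholly above them, against 20.3%. The median log2 fold change of the chains was −0.46, that of the 12 microglia markers was −0.40, and that of all genes was −0.05. The 95% intervals of all 10 chains spanned 0 and were wide: the narrowest, that of Ifnar1, ran from −1.44 to 0.57, so that values of either sign within these bounds are left possible by 2 libraries per group. Without AD/KO replicate 2 the median of the chains was 0.03, with 5 of 10 lower, and without AD/KO replicate 1 it was −1.50, with 10 of 10 lower.

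**Figure D3:**
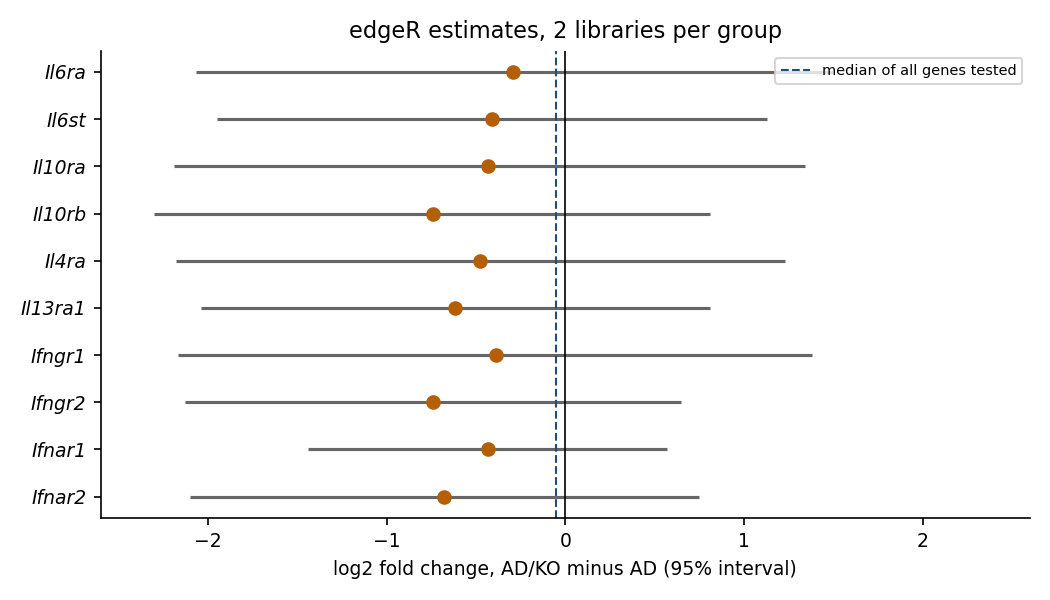
Log2 fold change (AD/KO minus AD, horizontal axis) of each receptor chain from edgeR, with its 95% interval as a bar, on 2 libraries per group. All points lie below 0, between −0.74 and −0.29, and all intervals cross 0; the dashed line is the median of all genes tested, −0.05.

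**Figure D4:**
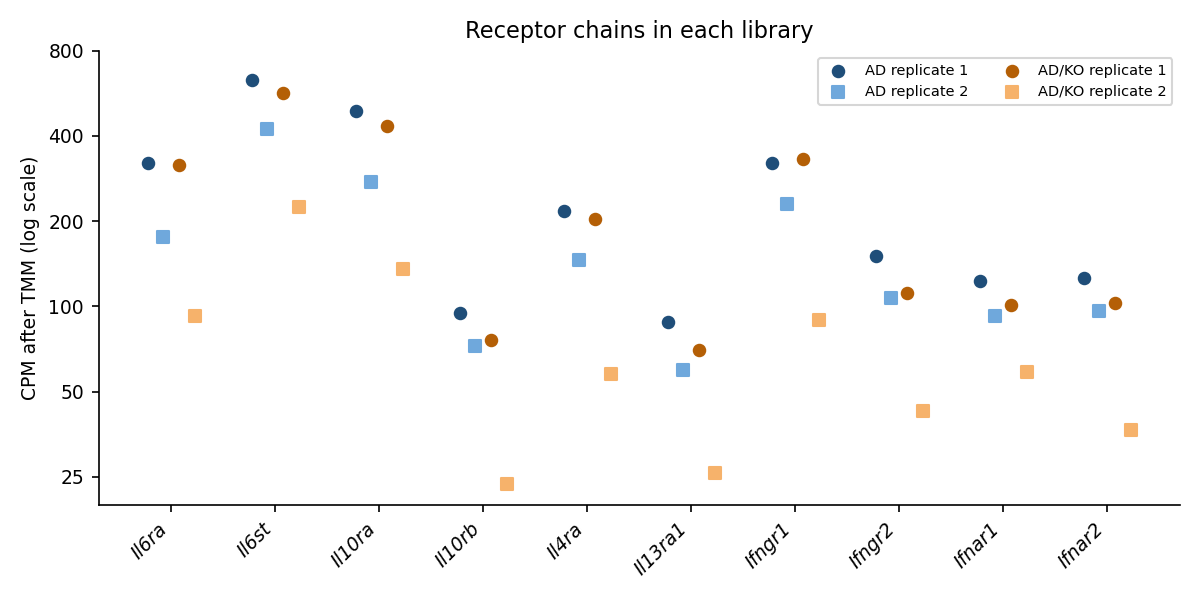
CPM after TMM scaling (vertical log axis) of each receptor chain, with 1 point per library. For every gene the AD/KO replicate 1 point lies within or near the range of the AD points, and the AD/KO replicate 2 point is the lowest.

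The chains and the microglia markers were alike in being lowest in AD/KO replicate 2, but differed in the other libraries. AD/KO replicate 1 lay above both AD libraries for 6 of 12 markers and 1 of 10 chains (28.6% of all genes), and between them for 4 of 12 markers and 9 of 10 chains. The mean log2 CPM of the 12 markers was 10.25 and 9.77 in AD and 10.21 and 8.42 in AD/KO. Taken relative to this mean within each library, Ifngr1 was almost constant, at −1.91 and −1.93 in AD and −1.84 and −1.94 in AD/KO on the log2 scale. Il4ra was as even, at −2.48 and −2.58 in AD and −2.55 and −2.56 in AD/KO. Ifnar1 was not: it stood at −3.30 and −3.24 in AD and −3.55 in AD/KO replicate 1, but at −2.55 in AD/KO replicate 2. Relative to the markers, Il10rb was lower in both AD/KO libraries (−3.96 and −3.86) than in AD (−3.68 and −3.60), and Il6ra higher in both (−1.92 and −1.88 against −1.92 and −2.31), although AD/KO replicate 1 and AD replicate 1 were equal to 2 decimals. The other 8 chains overlapped. That made 1 of 10 chains wholly lower and 1 of 10 wholly higher, against 6.22% and 9.70% of all genes taken relative to the markers in the same way.

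With the libraries scaled to the 12 microglia markers, 5 of 10 chains were lower and 5 higher in AD/KO, with a median log2 fold change of 0.00 and a range from −0.27 (Il10rb) to 0.31 (Ifnar1). This scaling raised the median of all genes to 0.84. With the neuron and astrocyte level of each library (mean log2 CPM of the markers) as a covariate, the median of the chains was 0.26 and 1 of 10 was lower. Under both, 0 of 10 chains passed an adjusted p of 0.05 by edgeR's quasi-likelihood test.

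**Figure D5:**
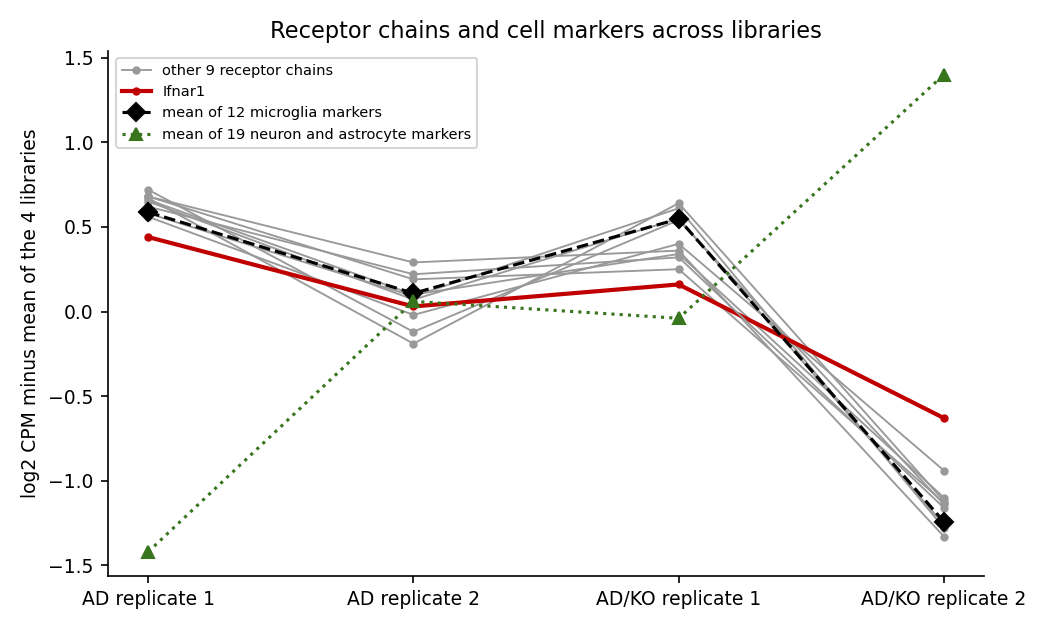
Log2 CPM of each receptor chain in the 4 libraries, minus its own mean (grey lines, Ifnar1 in red), with the mean of 12 microglia markers (black, dashed) and of 19 neuron and astrocyte markers (green, dotted). Lines join the values of 1 gene or list and imply no order; the chains and the microglia markers are lowest in AD/KO replicate 2, where the neuron and astrocyte markers are highest, and Ifnar1 is lowered least there, to −0.63.

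The chains resembled each other in these profiles to different degrees. The distance between 2 centred log2 profiles over the 4 libraries (Euclidean) was smallest for Il4ra and Ifngr1, at 0.098, and for Ifngr2 and Ifnar2, at 0.104, and Ifnar1 was farthest from its nearest other chain (Il6st, 0.413). The range of log2 CPM over the libraries was 1.07 for Ifnar1 and 1.50 to 2.01 for the other chains. Among 10255 other protein-coding genes with at least 10 CPM, the gene most like Il4ra was Laptm5 (distance 0.027), a lysosomal membrane protein of blood cells. The nearest gene was Lmo2 for Il13ra1 (0.026), Gal3st4 for Il10ra (0.033), Fam102b for Ifngr2 (0.008), Galnt12 for Ifnar2 (0.025), Ppp1r3b for Il10rb (0.057), 1700017B05Rik for Il6ra (0.056), Nrm for Il6st (0.043) and Bloc1s6 for Ifnar1 (0.019). With only 4 libraries, near matches among so many genes are frequent, and these distances are a description.

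The ligands of these receptors were scarcely measurable in the same RNA. Of 18 ligand genes, 10 did not pass the filter on low counts, among them Il10, Il4, Il13, Ifng and Ifnb1. Among the 8 tested, 5 were lower and 3 higher in AD/KO, their median change was −0.11 on the log2 scale, and 0 passed. The most abundant were Clcf1, a ligand of the CNTF receptor, at 21.5 ± 8.13 CPM in AD and 18.8 ± 14.4 CPM in AD/KO (SD, n = 2 each), and Osm (oncostatin M, a ligand that signals through Il6st) at 14.0 ± 3.05 and 7.23 ± 5.85 CPM (SD, n = 2 each).

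Other chains that combine with these receptors did not all share their pattern. Of 13 partner chains, 8 were tested, 5 lower and 3 higher in AD/KO, with a median of −0.12 and 0 past the threshold. Lifr, which pairs with Il6st for LIF, was at 214 and 139 CPM in AD and at 208 and 105 CPM in AD/KO, the same order of libraries as for the chains above. Cntfr, the CNTF-binding chain of the same complex, ran the other way, at 19.4 and 68.5 CPM in AD and at 58.3 and 158 CPM in AD/KO, as did the neuron and astrocyte markers. The part of those cells in Cntfr was not tested. Of 21 other class I cytokine receptor chains, 15 were tested, 10 lower and 5 higher, with a median of −0.46 and 0 past the threshold. Csf3r, the G-CSF receptor, was at 996 and 629 CPM in AD and at 694 and 256 CPM in AD/KO, whereas Csf2ra, the GM-CSF-binding chain, varied little, at 158 and 147 CPM in AD and at 149 and 131 CPM in AD/KO.

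Downstream, 0 of 20 JAK, STAT and feedback genes passed the threshold, with 15 lower, 5 higher and a median of −0.39. Jak1, the kinase shared by all these receptors, was at 242 and 197 CPM in AD and at 210.0 and 153 CPM in AD/KO, so that the groups overlapped, as they did for Ptpn6, the phosphatase SHP-1, at 235 and 183 CPM and at 207 and 64.9 CPM. The AD/KO values lay wholly below the AD values for 6 of the 20, against 21.7% of all genes, and wholly above them for 2 of the 20, against 20.3%. Of the proteases and cofactors that shed cytokine receptors, 4 of 4 were tested and 0 passed. Adam10 was at 293 and 208 CPM in AD and at 233 and 111 CPM in AD/KO, and Adam17 at 209.5 and 141 CPM and at 169 and 70.8 CPM.

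The lists of genes that these receptors are known to induce all had a lower median in AD/KO, and in none did a gene pass the threshold after adjustment. The log2 fold change was also below 0 for 52.8% of all genes and for 11 of 12 microglia markers. The medians were −0.05 for all genes and −0.40 for these markers. Of 12 type I interferon targets, 12 had the lower mean in AD/KO and 11 had AD/KO values wholly below the AD values, against 21.7% of all genes. Their median log2 fold change was −0.85, and 5 of 12 had an unadjusted p under 0.05, against 5.00% of all genes, by edgeR's quasi-likelihood test. This list was chosen with earlier results of these data known. Its genes answer to the same receptor and were read in the same libraries, so they are not 12 separate observations. Xaf1, a pro-apoptotic interferon-induced gene, was at 33.7 and 23.5 CPM in AD and at 14.5 and 7.87 CPM in AD/KO, and Bst2 (tetherin) at 20.5 and 16.3 CPM and at 17.4 and 6.95 CPM. For these targets, unlike for Ifnar1 and Ifnar2, AD/KO replicate 1 lay below the AD libraries in 11 of 12 genes; the difference between targets and receptor chains was not tested. The summed markers of monocytes and of border macrophages were also lower in both AD/KO libraries. Those of neutrophils were not, at 406 and 5107 CPM in AD and at 545 and 615 CPM in AD/KO. The 5 monocyte markers, 5 of 5 with the lower mean, summed to 91.6 and 166 CPM in AD and to 38.2 and 59.6 CPM in AD/KO. The 5 border macrophage markers, 4 of 5 with the lower mean, summed to 58.6 and 54.0 CPM in AD and to 26.9 and 26.5 CPM in AD/KO. None of these markers was at 0 in any library, and the part of these cells in the targets of this and the following lists was not tested.

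Of 12 interferon gamma targets, 11 were tested and 11 were lower, 3 of them without overlap (21.7% of all genes were lower without overlap), with a median of −0.64. Irf1, an early transcription factor of the response, was at 60.0 and 45.3 CPM in AD and at 52.9 and 25.7 CPM in AD/KO, and Gbp7, a guanylate-binding GTPase, at 57.0 and 34.9 CPM and at 49.0 and 18.0 CPM. Of 8 IL-4 and IL-13 targets, 6 were tested and 6 were lower, with a median of −1.39 and 4 of them without overlap. Of these 4, Mrc1 had 594 to 953 reads per library, but Ccl24, Arg1 and Pdcd1lg2 had only 3 to 41. The most abundant, Chil3, was at 10.6 and 294 CPM in AD and at 15.1 and 25.7 CPM in AD/KO, so that its mean rested on AD replicate 2, the library with the highest neutrophil markers, whose part was not tested. Tgm2, a transglutaminase, was at 101 and 63.6 CPM and at 67.2 and 28.9 CPM. Of 8 IL-6 and IL-10 targets, 8 were tested and 8 were lower, 3 of them without overlap, with a median of −0.34. Sbno2, a corepressor induced by IL-10, was at 200.5 and 164 CPM in AD and at 168 and 128 CPM in AD/KO, and Junb at 90.4 and 68.2 CPM and at 90.1 and 42.1 CPM. By edgeR's quasi-likelihood test, 5.00% of all genes had an unadjusted p under 0.05. The share was 2 of 11 interferon gamma targets, 1 of 6 IL-4 and IL-13 targets and 0 of 8 IL-6 and IL-10 targets.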

How the data were processed

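RNA-seq was made from CD11b+ microglia in 2 AD and 2 AD/KO libraries, stranded and depleted of ribosomal RNA, per the labels' protocols. The authors deposited whole-number read counts per gene symbol, 1 table per library, not normalized. The submitters' processing notes name HISAT2, SAMtools, featureCounts (Subread), DESeq2 1.30.0 and the build mm10. The annotation, the strand setting and the handling of reads matching several places are not given in the sources used here. The 11 lines without a count in each were dropped, leaving 49993 genes (0 columns without a sample).

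Genes were filtered with filterByExpr (minimum count 10, minimum total 15), scaled by TMM and tested with edgeR 4.0.16 in R 4.3.3 (quasi-likelihood F-test, group as the only term, Benjamini-Hochberg adjustment over 21439 genes, threshold 0.05). The SE is the log2 fold change divided by the square root of F, and intervals use the fit's degrees of freedom. Exon lengths came from GENCODE M21, and coordinates and promoters from RefSeq for GRCm38.p6, the build that mm10 names. Transcripts were searched for near-identical copies with BLAST 2.17.0 (at least 95% identity over 100 bases), which found only the overlapping genes Gm21970 and Gm42809. On simulated data, 78.5% of 200 genes changed by 3 on the log2 scale were called among 20814 genes tested, and 5.42% of calls were false. The simulation drew each gene independently, without differences shared by many genes of a library. Its change was also far larger than the estimates for the chains (−0.74 to −0.29). These shares therefore do not give the power or the false calls for the chains.

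The genes named were the 10 chains, Ociad1, for each chain the protein-coding gene with a mean of at least 10 CPM nearest to its profile, and from each pathway list the 2 genes with the highest mean CPM and any gene past the threshold; 1 gene under this rule is not reported here. The members and lists were chosen with earlier results of these data known. Alternatives were DESeq2 1.42.0 as the test or for size factors, scaling to the 12 microglia markers, no filter, a mean of at least 1 CPM as the filter, the other of edgeR's quasi-likelihood methods, a block for the replicate number, a neuron and astrocyte covariate, leaving out each library, and 1 added to counts before ratios. The longest transcript as gene length was added after seeing the data. Marker genes of endothelium and of T and NK cells were also listed: their summed CPM was 53.4 and 67.2 in AD against 49.0 and 72.5 in AD/KO, and 1.74 and 5.41 against 2.29 and 3.37.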

Additional observations from a re-analysis of the deposited data

How the results depend on the processing

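Of the 10 chains, 0 passed an adjusted p of 0.05 by edgeR under each alternative of scaling, filter, quasi-likelihood method, covariate or left-out library, and 0 by DESeq2. Over all genes, DESeq2 called 88, against 0, and leaving out 1 library gave 0 to 524 (48 without AD replicate 1, 524 without AD replicate 2, 0 without either AD/KO library). The median log2 fold change of the chains was 0.00 with libraries scaled to the microglia markers and 0.26 with the covariate, and leaving out 1 library gave −1.50 to 0.03. The cause was not tested. Scaled to the markers, the signs of Il6ra (0.21), Il6st (0.18), Il10ra (0.08), Ifngr1 (0.03) and Ifnar1 (0.31) turned. With the covariate, in a fit of 3 coefficients to 4 libraries, Il6ra was at 0.75, Il6st at 0.36, Il10ra at 0.57, Il10rb at 0.00, Il4ra at 0.39, Il13ra1 at 0.17, Ifngr1 at 0.44, Ifnar1 at 0.09 and Ifnar2 at 0.03. Leaving out 1 library gave −1.37 to 0.35 for Il6ra, −1.18 to 0.12 for Il6st, −1.45 to 0.19 for Il10ra, −1.60 to 0.17 for Il4ra, −1.58 to 0.27 for Ifngr1, −1.78 to −0.12 for Il10rb, −1.46 to −0.06 for Il13ra1, −1.54 to −0.20 for Ifngr2, −0.83 to −0.08 for Ifnar1 and −1.55 to −0.11 for Ifnar2, each lowest without AD/KO replicate 1 and highest without AD/KO replicate 2, with the lone library of its group assumed to vary like the others. The group differences in log2 ratio ran from −0.15 to 0.27 for Il6ra/Il6st, −0.14 to 0.23 for Il4ra/Il13ra1, −0.04 to 0.47 for Ifngr1/Ifngr2, 0.15 to 0.59 for Il10ra/Il10rb and 0.03 to 0.72 for Ifnar1/Ifnar2 under the same omissions.

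Both groups number their libraries 1 and 2, but no label ties a number to an animal, litter or day in common. Same-numbered libraries deviated together (correlation 0.72 over genes), which 2 pairs cannot establish as pairing. With the replicate number as a block, edgeR called 4333 genes (20.2%) and 1 of the 10 chains, Ifngr2 (log2 fold change −0.87, adjusted p 0.0419).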
